A study of Mus musculus with 111 samples.

Results

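The 7 astrocyte genes described here are Gfap, Aqp4, Slc1a3, Slc1a2, Glul, Gja1 and Aldh1l1. They were chosen by name as standard markers of astrocytes, but with earlier results of these data known. They are 7 of the 54087 gene rows in the count tables. All 7 passed the filter on low counts, which 13891 rows passed. Their levels were measured by RNA sequencing of the tuberomammillary nucleus (TMN) of the mouse, the hypothalamic nucleus that holds the brain's histamine neurons. C57BL/6 mice aged 8–10 weeks received an AAV bilaterally into the TMN, and the infected tissue, seen by its GFP fluorescence, was microdissected 21 days later at ZT0, 4, 8, 12, 16 or 20 (zeitgeber time in hours; ZT0 is lights on and ZT12 lights off). The vector was empty and gave GFP alone (GFP), or carried wild-type histone H3.3 (H3.3), or H3.3(Q5A)-Flag-HA (Q5A), in which glutamine 5, the residue that takes up monoamines such as histamine and serotonin, is replaced by alanine. All vectors carried an IRES-driven GFP, so GFP and H3.3 serve as controls that were also infused and infected. No uninjected library was analysed here, and a reaction to the infusion that all groups share is therefore not measured. The promoter of the vector and the cell types that took it up are not given in the sources used here. Each library came from 1 animal.

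Astrocytes clear glutamate and potassium from around synapses, keep water and ions in balance at the blood vessels, and feed neurons with glutamine and lactate. Glutamate enters them through the transporters encoded by Slc1a2 and Slc1a3, is turned into glutamine by glutamine synthetase (Glul), and returns to neurons in that form. Injury, infection and inflammation drive astrocytes into a reactive state whose classic sign is a rise of the intermediate filament GFAP. In the hypothalamic clock, astrocytes keep daily rhythms of their own.

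Altogether 32 GFP, 39 H3.3 and 39 Q5A libraries were analysed, 4 to 8 in each of 18 groups of virus and ZT. For Q5A at ZT4, cohort 2 replicates 2 and 3 had near-identical tables (6 reads apart, spread over 3 rows, below sampling noise) and entered as a single library, their mean. The labels place the animals in 3 cohorts: 78 libraries in cohort 1, 24 in cohort 2 and 8 in cohort 3, which holds no GFP library and no library of ZT0 or ZT20. Gene rows summed to between 673306 and 3375352 counts a library (median 1474422.5) and took 3.49% to 5.63% of the uniquely placed reads of a library. The 6 libraries with the highest share in gene rows were GFP ZT12 and Q5A ZT12 (both cohort 2 replicate 1), H3.3 ZT16 and Q5A ZT4 (both cohort 3 replicate 1) and H3.3 ZT20 (cohort 1 replicates 2 and 3). They matter for what follows, because their summed level of the 7 genes had a median of 1094 normalised counts against 532.8 in the other libraries. As a check of the tissue label, Hdc, the histamine-forming enzyme that defines the TMN, had a median count of 4.0 (range 0 to 53) and was at 0 in 11 libraries. The strand setting described next limits this check, and the count does not decide whether the tissue was TMN.

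Reads were counted on the strand of the annotated gene, whereas the library kit places the first read on the opposite strand. A row can therefore hold reads of a gene that lies opposite, and reads of the gene itself can fall outside its row. Gene rows took 3.49% to 5.63% of the uniquely placed reads of a library, as given above. Glul (chromosome 1, 153899944 to 153909723, plus strand of GRCm38) shares 116 bp of exon with Teddm2 on the minus strand, whose row had a median count of 4196 beside 170 for Glul. Gfap (chromosome 11, 102887336 to 102900912, minus strand) lies within the span of the long non-coding RNA Gm26668, with 0 bp of shared exon and a median count of 255 in the Gm26668 row beside 38 for Gfap. Of its 3635 bp of exon, Gm26668 shares 2261 bp with Eftud2 on the opposite strand, so its row can hold reads of Eftud2. Across the 110 libraries the Spearman correlation was 0.20 between Glul and Teddm2 and -0.51 between Gfap and Gm26668; each pair shares library, depth and size factor, and the values are a description. Slc1a2 (chromosome 2, 102658659 to 102790784, plus) and Aldh1l1 (chromosome 6, 90486427 to 90600203, plus) share 189 and 499 bp of exon with opposite genes that have no row of their own in the tables, and Aqp4 has an opposite gene with 0 bp of shared exon. For Slc1a3 (chromosome 15, 8634124 to 8710764, minus) and Gja1 (chromosome 10, 56377330 to 56402513, plus) the annotation holds no gene opposite. How many reads of a row came from either strand was not tested. All levels below are therefore levels of the deposited rows.

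Glul was the 1 member called in the main fits below for ZT over all libraries and for cohorts, and its promoter is printed for that reason. The rhythm tests below called other members as well. The 250 bases before its start in RefSeq (GRCm38.p6, chr1:153899679-153899928, plus strand) lie within the span of Teddm2, and capitals mark AGGTCA, the core letters bound by nuclear receptors of the ROR and REV-ERB families that take part in the circadian clock:
Glul: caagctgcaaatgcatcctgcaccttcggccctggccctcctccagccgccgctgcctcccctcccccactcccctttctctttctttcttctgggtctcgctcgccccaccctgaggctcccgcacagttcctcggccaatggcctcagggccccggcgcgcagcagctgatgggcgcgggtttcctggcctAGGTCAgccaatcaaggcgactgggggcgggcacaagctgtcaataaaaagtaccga

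AGGTCA, searched on both strands, was found in 3 of the 6 member promoters examined (Aqp4 was not among them) and in 14.02% of all 32851 RefSeq promoters of the same length. The E-box CACGTG, to which CLOCK and BMAL1 bind, was found in 0 of the 6 and in 6.021% of all. The windows below are 30 bases long and show the match in capitals as read on the strand of the gene, where TGACCT is AGGTCA on the opposite strand. The first base of the match lies 57 bases before the start of Glul, 178 before that of Aldh1l1 and 85 before that of Gfap. A match shows the letters, not binding, and the RefSeq starts of Aldh1l1 and Gfap lie inside the genes' spans in the annotation used for coordinates, not at their ends.
Glul (chr1:153899860-153899889, plus): gtttcctggcctAGGTCAgccaatcaaggc
Aldh1l1 (chr6:90550603-90550632, plus): caaatggacggaTGACCTgagcttggttct
Gfap (chr11:102897268-102897297, minus): ctctgggtacagTGACCTcagtggggtgag

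The Glul row stood highest of the 7, an order of the deposited rows and not of transcript abundance. Levels are given as normalised counts (counts divided by a size factor per library), and for an order between genes they were divided by the summed exon length. Per kilobase of exon, the median over 110 libraries was 51.6 for Glul, 12.04 for Slc1a2, 9.65 for Slc1a3, 8.98 for Gfap, 3.85 for Gja1, 3.43 for Aldh1l1 and 2.14 for Aqp4. Glul exceeded Slc1a2 in 110 of 110 libraries. Slc1a2 exceeded Slc1a3 in 78, Gfap exceeded Gja1 in 100, and Aldh1l1 exceeded Aqp4 in 83. The order of Slc1a3 over Gfap (63 libraries) and of Gja1 over Aldh1l1 (70 libraries) was less regular. Whether these neighbours differed was not tested.

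The genes also differed in how much they varied between libraries. Gfap, the filament of reactive astrocytes, ran from 4.91 to 431.8 normalised counts with a median of 37.9, and its SD was 109% of its mean (n = 110). Aqp4 (chromosome 18, 15389496 to 15410982, minus strand), the water channel of the endfeet on blood vessels, ran from 1.24 to 94.9 with a median of 13.3 and an SD of 79.7% of its mean. Both had a long upper tail, and Aqp4 rested on few reads (raw counts from 1 to 131, median 14). The transporter genes varied less: Slc1a3 ran from 21.6 to 253.3 (median 82.4, SD 48.2% of the mean) and Slc1a2 from 75.7 to 440.4 (median 158.1, SD 39.1%). Glul ran from 68.4 to 403.5 (median 171.4, SD 38.4%). Gja1, which encodes a connexin of the gap junctions that couple astrocytes, ran from 16.6 to 97.3 (median 39.4, SD 34.2%). Aldh1l1, an enzyme of folate metabolism, ran from 2.83 to 35.8 (median 15.5, SD 40.5%). By this measure Gja1 was the steadiest and Gfap varied most. The measure pools all libraries, so it holds differences of virus, ZT and cohort and counting error as well as those between animals.

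**Figure D1:**
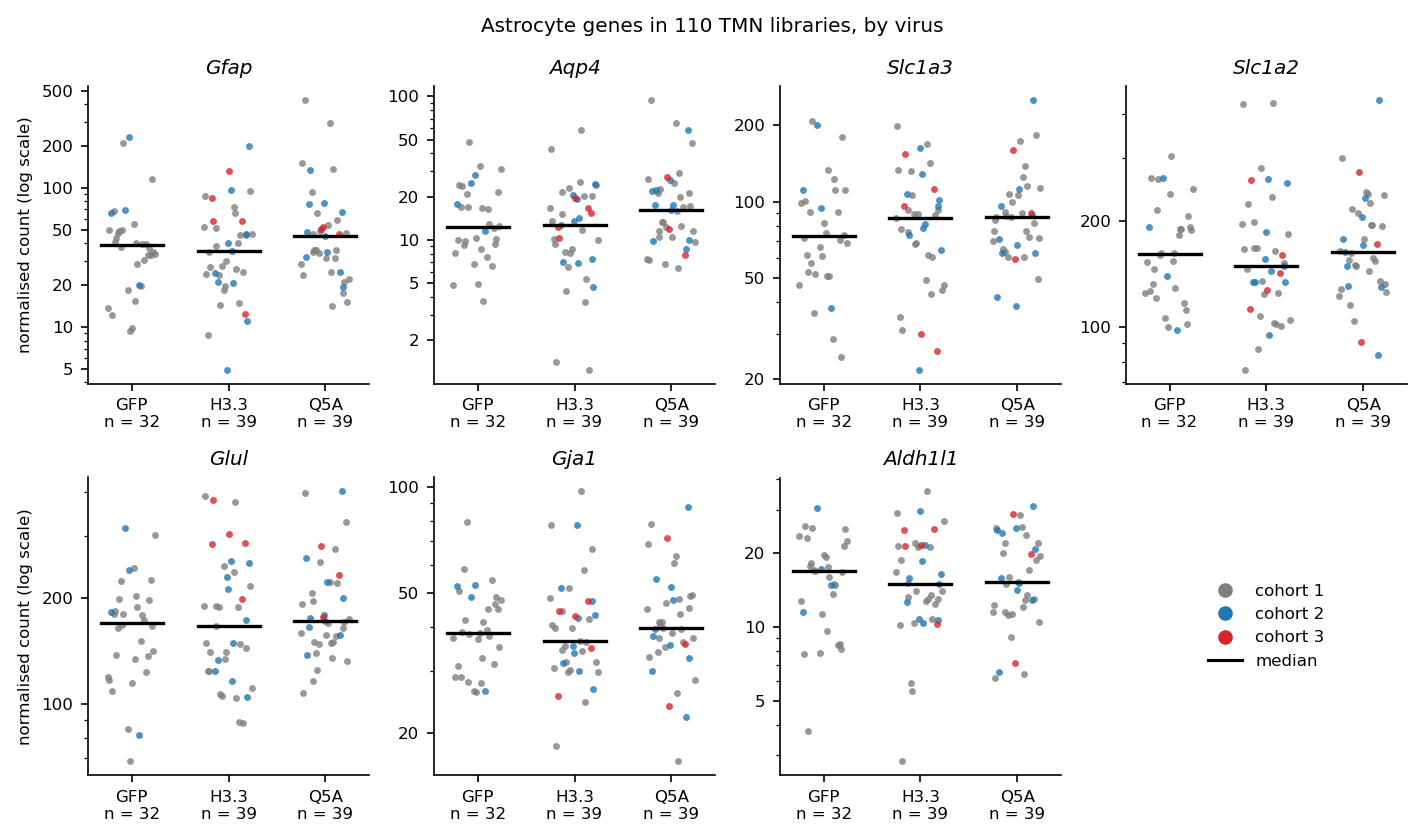
Normalised counts of the 7 genes (log axis) in each library by virus (GFP n = 32, H3.3 n = 39, Q5A n = 39), coloured by cohort, with a black line at the median. The viruses overlap for every gene, and Gfap and Aqp4 show the widest spread within each virus.

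The first question of the design is whether H3.3 that cannot be monoaminylated alters these genes over all ZT. None of the 7 passed the threshold (edgeR quasi-likelihood test with ZT as a factor, Benjamini-Hochberg adjusted p under 0.01): 0 of 7 between Q5A and the pooled controls, where 0.036% of all rows tested were called. DESeq2 also called 0 of the 7. At an unadjusted p under 0.05 stood 2 members, Aqp4 and Gfap, among 757 of 13891 rows. Their levels were higher in Q5A in the middle of the distribution and at its upper end. Gfap had a lowest, median and highest level of 9.37, 38.6 and 231.7 in GFP, of 4.91, 35.4 and 200.6 in H3.3, and of 14.1, 45.4 and 431.8 in Q5A. Aqp4 had 3.77, 12.4 and 48.0 in GFP, 1.24, 12.7 and 58.4 in H3.3, and 6.41, 16.1 and 94.9 in Q5A. The 3 viruses overlapped over most of their range for both genes. The log2 difference was 0.45 for Gfap (SE 0.21, 95% interval 0.04 to 0.85, adjusted p = 0.843) and 0.46 for Aqp4 (SE 0.17, interval 0.12 to 0.80, adjusted p = 0.843). For Gfap the size rested on few animals: without replicate 1 of every group it was 0.20, and within cohort 1 alone it was 0.73, in neither case past the threshold.

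The other 5 members differed less between Q5A and controls. The log2 difference was 0.14 for Slc1a3 (95% interval -0.11 to 0.38), 0.09 for Slc1a2 (-0.10 to 0.27) and 0.12 for Glul (-0.06 to 0.30), the genes of glutamate uptake and glutamine formation. It was 0.08 for Gja1 (-0.09 to 0.26) and 0.05 for Aldh1l1 (-0.18 to 0.27). These intervals leave room for differences of up to about 0.38 on the log2 scale and for none. Taken as a list, 7 of 7 had a positive difference, with a median of 0.12 against 0.00 over all rows tested. Of a wider list of 38 astrocyte genes, 37 were tested, 32 were positive and the median was 0.08, but 9 of 11 neuron markers were positive as well with a median of 0.08. With the neuron marker level as a covariate the differences of Slc1a2 and Aldh1l1 fell to 0.00 and -0.02. No gene of the wider list was called, and that with the smallest p was Cbs (cystathionine beta-synthase) with a log2 difference of 0.31 (unadjusted p = 0.0216 in edgeR). Of 38 genes of reactive astrocytes only 12 had counts enough to be tested; 6 of the 12 were positive, none was called, and the smallest p was that of Amigo2 (0.36, edgeR adjusted p = 0.822). Lcn2, a defining gene of the reactive state, was at 0 in 72 libraries, and Vim, another intermediate filament, had a median count of 11. These low counts do not show whether a reactive state was present.

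The control viruses were compared in the same fit, to see whether extra wild-type H3.3 by itself moved the genes. It did not do so past the threshold: 0 of 7 members were called by edgeR (0.0% of all rows) and 0 by DESeq2, and 0 of 7 stood at an unadjusted p under 0.05, as did 526 of 13891 rows. The log2 differences of H3.3 from GFP ran from -0.12 for Gfap (95% interval -0.61 to 0.38) to 0.15 for Glul (-0.07 to 0.36). Because Gfap and Aqp4 vary so much between animals, these intervals are wider than those of the transporter genes.

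**Figure D2:**
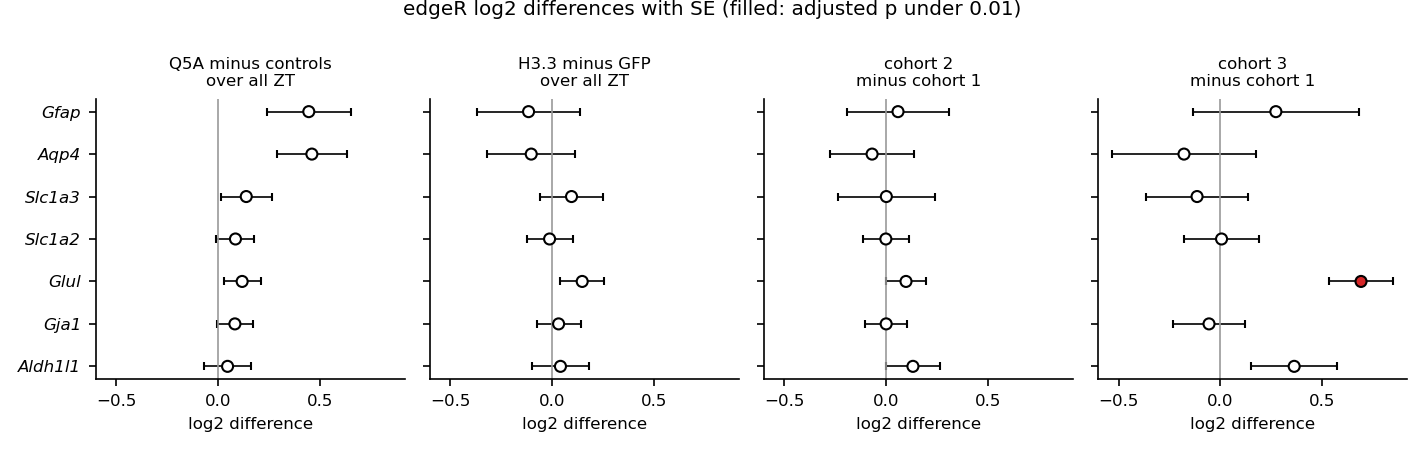
Log2 differences of the 7 genes with SE from edgeR for Q5A against controls, H3.3 against GFP and the cohorts; a filled point has an adjusted p under 0.01. Glul between cohort 3 and cohort 1 is the only filled point.

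At single ZT the same question was put 6 times. Between Q5A and controls 0 of 42 tests (7 genes at 6 ZT) passed, against 0.0144% of tests over all rows; 5 of the 42 had an unadjusted p under 0.05, as did 6.87% of tests over all rows. DESeq2 called 0 of the 42 as well. The largest 2 were at ZT12, lights off. Gfap ran from 22.1 to 292.1 with a median of 59.0 in Q5A (n = 7) and from 9.86 to 69.2 with a median of 30.4 in controls (n = 13), and Aqp4 from 6.79 to 65.6 with a median of 17.0 against 1.41 to 25.1 with a median of 12.7. Groups overlapped for both genes, with single Q5A animals far above the rest. The log2 difference was 1.36 for Gfap (SE 0.48, edgeR adjusted p = 0.971), and 0.80 once replicate 4, whose cohort 1 animal was the highest, was left out of every group. For Aqp4 it was 1.12 (SE 0.37, edgeR adjusted p = 0.821). At ZT20 the sign of Aqp4 was the other way, with a log2 difference of -0.72 (SE 0.42, edgeR adjusted p = 0.585).

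Between the control viruses 0 of 42 tests passed (0.0% of tests over all rows), and 8 had an unadjusted p under 0.05, as did 9.91% of tests over all rows. DESeq2 also called 0, but gave no adjusted p for Slc1a3 at ZT12. These tests share the control libraries with those of Q5A. Of the 8 tests, 4 fell at ZT12, where H3.3 was lower than GFP for 7 of 7 members. The rows opposite to members were higher in H3.3 there, Teddm2 by 0.55 (SE 0.19, edgeR adjusted p = 0.0489) and Gm26668 by 0.41 (0.178). Slc1a3 ran from 82.6 to 207.7 with a median of 145.5 in GFP (n = 6) and from 25.8 to 107.7 with a median of 60.4 in H3.3 (n = 7), so that the groups overlapped little. Its log2 difference was -1.18 (SE 0.31, edgeR adjusted p = 0.0226). For Slc1a2, with medians of 249.8 and 133.9, it was -0.71 (SE 0.24, edgeR adjusted p = 0.0475). Neither passed the threshold of 0.01, though Slc1a3 did without replicate 3 of every group (-1.42, edgeR adjusted p = 0.00529). The difference at this ZT was shared with genes outside the astrocyte: 4255 of 13891 rows had an unadjusted p under 0.05, DESeq2 called 353 rows where edgeR called 0, 0 of 11 neuron markers were positive with a median of -0.59 against -0.08 over all rows, and the summed level of the neuron markers averaged 1718 normalised counts in GFP and 1124 in H3.3. With the neuron marker level as a covariate Slc1a3 stood at -0.48 (edgeR adjusted p = 0.889), with the share of reads in gene rows as a covariate at -0.79 (0.202), and without the 6 libraries of highest share at -1.10 (0.0474).

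At ZT20 the direction was the opposite. Slc1a3 was at 28.7, 36.4, 73.9, 75.0 and 61.6 normalised counts in the 5 GFP animals and between 67.9 and 199.6 (median 129.9) in the 6 of H3.3, a log2 difference of 1.21 (SE 0.35, edgeR adjusted p = 0.333). Most GFP animals lay below most H3.3 animals, with a small overlap. Of the 7 members 6 were higher in H3.3 (median 0.49, against 0.04 over all rows), as were 11 of 11 neuron markers, whose sum averaged 1351 in GFP and 1898 in H3.3, and 2 of the 6 libraries of highest share in gene rows are of this H3.3 group. Slc1a3 at ZT20 stood at 0.91 without those 6 libraries (edgeR adjusted p = 0.996), at 0.80 with the neuron marker level as a covariate (1.00) and at 0.89 with the share of reads in gene rows as a covariate (0.83). At ZT0 Aqp4 was at 4.89, 3.77, 9.81 and 9.31 in the 4 GFP animals and at 16.8, 25.4, 21.6, 20.2 and 20.6 in the 5 of H3.3. These groups did not overlap, yet counts this low left a wide error: the log2 difference was 1.64 with an SE of 0.63 (edgeR adjusted p = 1.00).

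**Figure D3:**
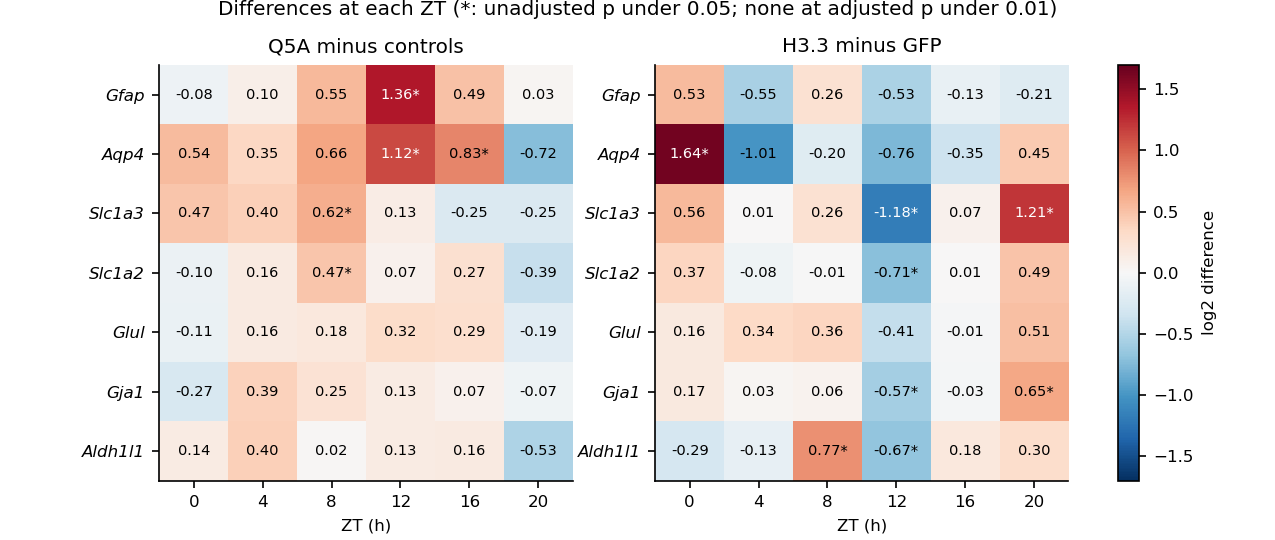
Heat map of the log2 differences of the 7 genes at each ZT (ZT in hours) for Q5A against controls and H3.3 against GFP; an asterisk marks an unadjusted p under 0.05. Between H3.3 and GFP the column of ZT12 is negative for all 7 genes and that of ZT20 is positive for 6, and between Q5A and controls Gfap and Aqp4 are highest at ZT12.

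Over the day, Glul alone passed a test that assumes no shape. With all libraries in 1 edgeR fit, and virus and cohort as factors, ZT was called for 1 of 7 members at an adjusted p under 0.05, where 6.9% of all rows were called. Its level was lowest late in the light phase and highest in the dark. It ran from 115.7 to 259.9 with a median of 178.5 at ZT0 (n = 15), from 68.4 to 381.1 with a median of 148.2 at ZT4 (n = 18), and from 81.1 to 304.2 with a median of 133.6 at ZT8 (n = 19). After lights off it ran from 105.2 to 403.5 with a median of 175.4 at ZT12 (n = 20), from 123.8 to 397.7 with a median of 202.7 at ZT16 (n = 21), and from 134.5 to 391.4 with a median of 192.8 at ZT20 (n = 17). The ranges overlapped at every ZT, but the mean at ZT16, 220.2 ± 70.6 (SD), was 1.63 times that at ZT8, 135.0 ± 48.2 (SD). The test gave an edgeR adjusted p of 3.84e-04. The call held within cohort 1 alone (3.03e-04), with the neuron marker level as a covariate (3.75e-05) and with the share of reads in gene rows as a covariate (2.81e-05). The opposite row Teddm2 had an edgeR adjusted p of 0.0561 for ZT in the same fit, and 2.48e-04 and 1.66e-04 with those covariates; Teddm2 was looked at after the values were seen, and its part in the day course of Glul was not tested.

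The remaining members missed the threshold, although the ratio of the highest to the lowest ZT mean was larger for Gfap (2.12) and Aqp4 (1.80), whose spread between animals was wider, than for Glul. Slc1a2 missed the threshold by little (adjusted p = 0.0537 in edgeR), and its mean was lowest at ZT8, 144.7 ± 34.2 (SD, n = 19), and highest at ZT20, 218.2 ± 92.2 (SD, n = 17). Adjusted p in the same edgeR test was 0.156 for Gfap, 0.22 for Slc1a3, 0.223 for Aqp4, 0.226 for Aldh1l1 and 0.435 for Gja1. In the wider astrocyte list 4 of 37 were called, among them Gjb6, a further connexin (edgeR adjusted p = 0.0321), Itih3 (0.0429) and Kcnj10, the potassium channel that buffers extracellular potassium (0.0442). Of the reactive list 1 of 12 was called, Vim (edgeR adjusted p = 0.0346). Outside astrocytes, 6 of 10 oligodendrocyte genes were called, 1 of 11 neuron genes and 0 of 10 microglia genes (for which 1 of 10 had an unadjusted p under 0.05).

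**Figure D4:**
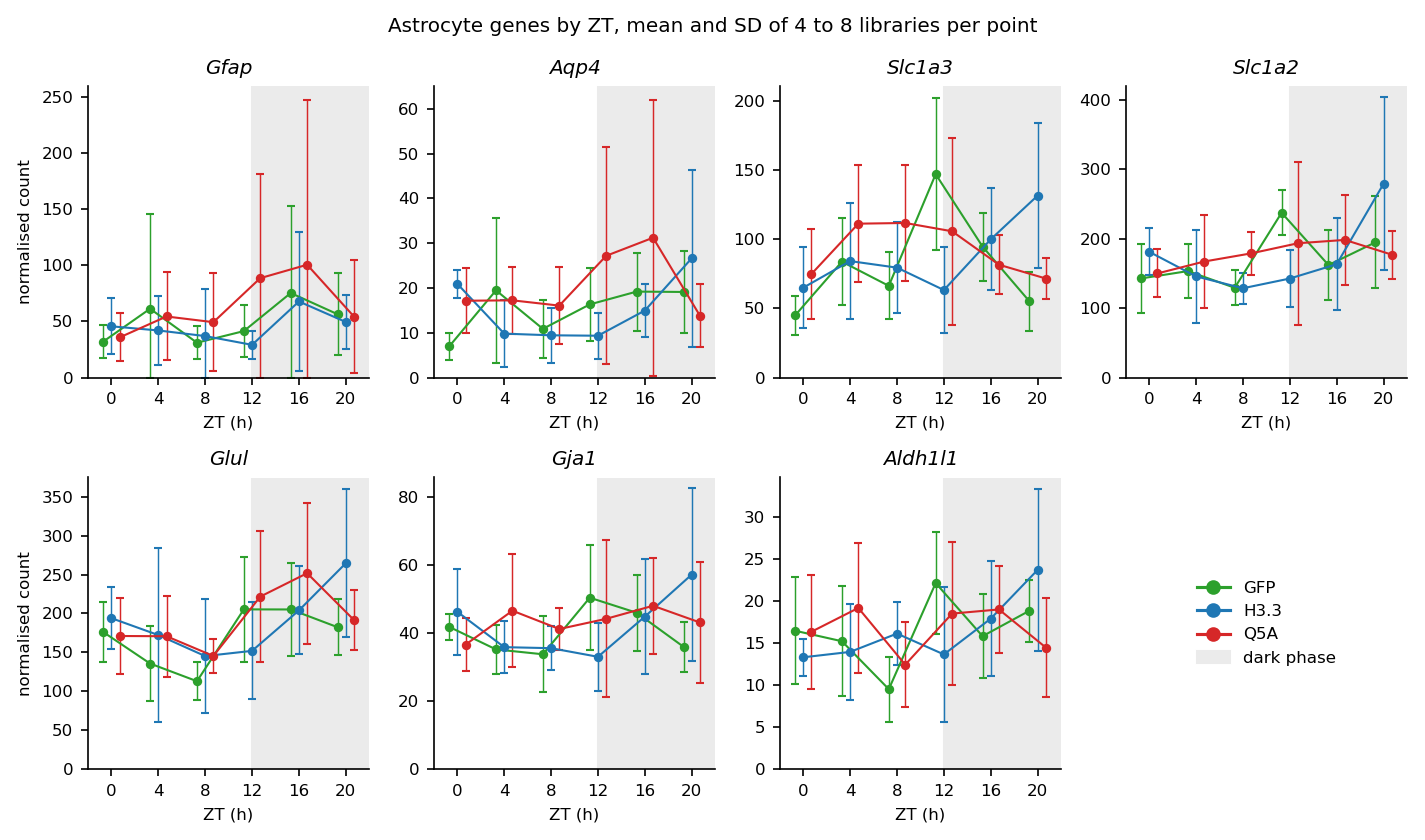
Mean normalised count ± SD of the 7 genes at each ZT (hours) for GFP, H3.3 and Q5A, 4 to 8 libraries a point, with the lower bar ended at 0 and the dark phase in grey. Glul has its lowest mean at ZT8 in each virus, and Gfap and Aqp4 have the longest bars.

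Rhythm within each virus was tested with JTK_CYCLE, which compares ranks with waves of 8 to 24 h and corrects for the 20 waves but not for the number of genes. In the pooled controls (n = 71) 2 of 7 members were called at p under 0.05, where 16.8% of all rows were: Glul (JTK_CYCLE p = 9.38e-05, q over all rows 0.012) and Aqp4 (JTK_CYCLE p = 0.0243, q = 0.199). In Q5A (n = 39) 1 was called where 4.54% of rows were, again Glul (JTK_CYCLE p = 0.0274, q = 0.914). In GFP (n = 32) Slc1a3 (0.00301) and Glul (0.0154) were called where 13.5% of rows were, and in H3.3 (n = 39) Glul (0.00879), Aqp4 (0.0107) and Slc1a2 (0.0147) where 7.62% were. Glul was called in each of the 3 viruses and in the pooled controls, which are the GFP and H3.3 libraries. The other calls differed from virus to virus. For Glul q was 0.236 in GFP and 0.37 in H3.3. Its best wave had a period of 20 h in controls, GFP and Q5A and of 24 h in H3.3. Glul was missed in GFP with cohort 1 alone, and in H3.3 relative to neuron markers or without the 6 libraries of highest gene share. In controls and Q5A it was called in each of these settings. With 1 replicate number left out of every group, 0 to 1 members were called in Q5A, 1 to 3 in GFP and 0 to 3 in H3.3, and Glul was lost in Q5A without replicate 1, 2 or 4, in GFP without replicate 1 or 2 and in H3.3 without replicate 1, 2 or 3. In the wider astrocyte list 12 of 37 genes were called in controls, 9 in GFP, 3 in H3.3 and 2 in Q5A. Among those of smallest p were Kcnj10, Ttyh1 and Ndrg2 in controls, Fgfr3, Kcnj10, Hes5 and Bcan in GFP, Slc4a4, Ttyh1 and Kcnj10 in H3.3, and Itih3 and Nfia in Q5A. Of the reactive list Nes was called in controls and S1pr3 in GFP. A call in 1 set and not in another does not show that the sets differ.

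A 24 h wave fitted to the counts of the controls was called for 3 of 7 members (edgeR adjusted p under 0.05) where 10.2% of rows were called. Glul had an amplitude of 0.35 on the log2 scale with a peak at 18.9 h (edgeR adjusted p = 0.00976), Slc1a2 of 0.29 with a peak at 19.0 h (0.0276) and Aqp4 of 0.49 with a peak at 20.05 h (0.0314). The peaks of these 3 members fall in the second part of the dark phase. Of the wider list 7 of 37 were called, and their peaks were more scattered: Kcnj10 peaked at 19.5 h (edgeR adjusted p = 0.00234), Itih3 at 12.5 h (0.0159) and Hes5 at 1.46 h (0.0173). In GFP the fitted peaks of the 7 genes lay between 11.8 and 18.6 h and in H3.3 between 18.8 and 20.8 h. Slc1a3 had its peak at 11.8 h in GFP, where it was called (edgeR adjusted p = 0.0152), at 19.8 h in H3.3 and at 8.2 h in Q5A. In Q5A 0 of 7 were called by this fit in edgeR at the adjusted threshold, with Glul, Gfap and Slc1a3 at an unadjusted p under 0.05.

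A difference in day course needs a test of its own, and none was called. Between Q5A and controls 0 of 7 members passed an adjusted p of 0.05 (0.115% of rows), with Slc1a3 (unadjusted p = 0.0197 in edgeR) and Aqp4 (0.0207) among 1987 of 13891 rows at an unadjusted p under 0.05 and a smallest adjusted p of 0.298. Between H3.3 and GFP 0 of 7 passed (0.0288% of rows), with Slc1a3 (0.00116), Slc1a2 (0.00745), Gja1 (0.0214) and Aqp4 (0.0376) below 0.05 unadjusted, among 1736 rows in edgeR, and a smallest adjusted p of 0.261. DESeq2 called 0 members in both. All 4 genes named for H3.3 and GFP had a negative difference at ZT12 and a positive one at ZT20, as the neuron markers did, and 4 of 11 neuron markers had an unadjusted p under 0.05 in the same test. In the wider list 11 of 37 and 3 of 37 stood below 0.05 unadjusted in the 2 tests, none was called, and Itih3 (edgeR adjusted p = 0.238) and Slc4a4 (0.222) came nearest. Within cohort 1 alone Gfap was called between Q5A and controls (edgeR adjusted p = 0.0202).

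Glul was the 1 member of 7 called between cohort 3 and cohort 1, with virus and ZT as factors. Over all rows 21.4% were called, so calls were no more frequent among the members than among rows at large. Glul ran from 68.4 to 397.7 with a median of 161.6 in cohort 1 (n = 78), from 81.1 to 403.5 with a median of 176.8 in cohort 2 (n = 24) and from 176.5 to 381.1 with a median of 283.0 in cohort 3 (n = 8). The lowest library of cohort 3 lay above the median of cohort 1, and all 8 stayed inside the range of the other cohorts. The log2 difference was 0.69 (SE 0.16, 95% interval 0.38 to 1.00, edgeR adjusted p = 2.59e-04). The mean of cohort 3 was 1.71 times that of cohort 1 within H3.3 and 1.25 times within Q5A. With the share of reads in gene rows as a covariate, a share that ran from 4.13% to 5.18% in cohort 3 and from 3.49% to 4.82% in cohort 1, the difference was 0.22 (edgeR adjusted p = 0.272) and Slc1a3 was the 1 member called, at -1.08 (edgeR adjusted p = 5.98e-05). With the neuron marker level as a covariate Glul stayed at 0.48 (5.34e-05).

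The other 6 members ran from -0.18 (Aqp4) to 0.36 (Aldh1l1) between cohorts 3 and 1. The wider list moved more: 20 of 37 were called and higher in cohort 3, with a median log2 difference of 0.67. By smallest p these included Aldoc, the astrocytic aldolase (1.02), the neurotensin receptor gene Ntsr2 (0.98), angiotensinogen Agt (1.17) and the amino acid transporter gene Slc7a10 (0.73). Of the neuron markers 4 of 11 were called and higher, of the oligodendrocyte genes 3 of 10, of the microglia genes 1 of 10 was called, and of the reactive genes 0 of 12 (Sphk1 came nearest, edgeR adjusted p = 0.0184). Of the rows opposite to members, Gm26668 was lower in cohort 3 (-0.79, SE 0.14, edgeR adjusted p = 7.16e-06) and Teddm2 was at 0.19 (0.302). Between cohort 2 and cohort 1 no member was called by edgeR (0 of 7, where 1.88% of rows were) and 0 stood at an unadjusted p under 0.05; differences ran from -0.07 to 0.13. Of the wider list 0 of 37 were called in that comparison (33 positive, Itih3 with the smallest p), and of the reactive list H2-D1, a class I histocompatibility gene, was higher in cohort 2 (0.84, edgeR adjusted p = 0.00622).

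From library to library the summed level of the 7 genes followed the neuron markers, while single members followed each other to unlike degrees. The members' sum ran from 286.7 to 1416 normalised counts (median 539.6), with medians of 507.7 in GFP, 534.7 in H3.3 and 559.3 in Q5A that lie well inside the spread of each virus. Across 110 libraries the Spearman correlation of the sum was 0.86 with the sum of the wider astrocyte list, 0.80 with the 11 neuron markers, 0.63 with endothelial genes, 0.54 with oligodendrocyte genes, 0.53 with the share of reads in gene rows and 0.42 with the reactive genes. It was 0.22 with the total count, 0.18 with the histaminergic genes, 0.17 with those of ependyma and tanycytes, -0.10 with the microglia genes and -0.77 with Gm26668. All sums share the library and its size factor, so these values are a description. In bulk tissue, fewer astrocytes and less RNA per astrocyte cannot be told apart. The ratio of the members' sum to the neuron markers' sum had a median of 0.407 and ran from 0.27 to 0.877.

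In the 6 libraries of highest share the members' sum was above the median in 6 of 6, as were the sums of the wider astrocyte genes (median 7460 against 4403 in the others), the neuron markers (2479 against 1267) and the oligodendrocyte genes (4021 against 2422). The microglia genes were level, at 405.5 against 403.5. One library, Q5A ZT12 of cohort 2 replicate 1, was among the 5 highest for 6 of the 7 members, and H3.3 ZT20 of cohort 1 replicates 2 and 3 and Q5A ZT16 of cohort 1 replicate 1 were among the 5 highest for 5 members each. Leaving the 6 libraries out moved the correlation with the wider list to 0.84 and that with the neuron markers to 0.77.

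**Figure D5:**
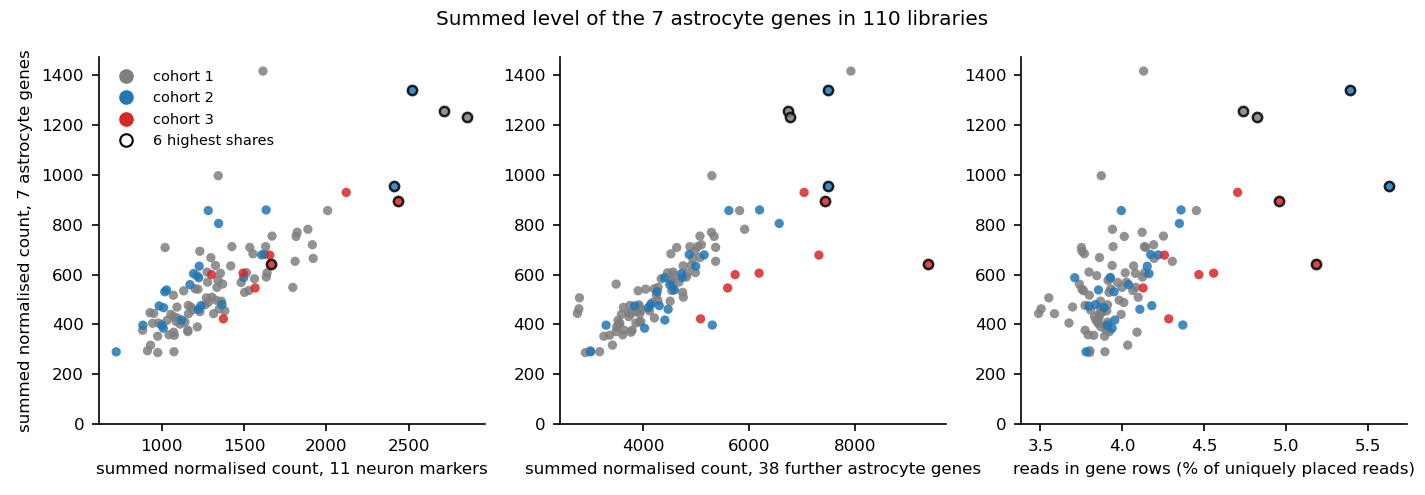
Summed normalised count of the 7 genes in each of the 110 libraries against the sums of 11 neuron markers and of 38 further astrocyte genes and against the share of uniquely placed reads in gene rows (%), coloured by cohort, with the 6 libraries of highest share outlined. The sum rises with all 3 measures, and the outlined libraries lie toward the upper right.

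Between pairs of members the Spearman correlation ran from 0.16 to 0.65 with a median of 0.48 over 21 pairs. The lowest values were those of Slc1a3, at 0.16 with Aqp4, 0.18 with Glul and 0.19 with Gfap. Its highest was 0.42, with Gja1. After the means of virus by ZT and of cohort were removed, the rows most like the mean of the 7 genes across the 110 libraries were Scd2 (Pearson r = 0.88), Sparcl1 (0.85), Syt11 (0.82), Psap (0.82) and Sepp1 (0.81). The members themselves had r from 0.48 to 0.81 with that mean, of which each is a part. The median r was 0.54 for the wider astrocyte list, 0.57 for the neuron markers, 0.55 for the oligodendrocyte genes and 0.08 for all rows tested. By this median, neuron and oligodendrocyte genes followed the members about as closely as other astrocyte genes did. Single genes ran from -0.71 to 0.85 in the wider astrocyte list, 0.04 to 0.67 in the neuron markers and -0.55 to 0.69 in the oligodendrocyte genes. By the sums given above, oligodendrocyte genes followed the members less closely than the wider list did (Spearman 0.54 against 0.86).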

How the data were processed

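RNA was sequenced from TMN tissue of 1 mouse a library with a stranded mRNA kit. Per the labels, the deposited files hold raw counts per gene name, made by the authors with STAR 2.7.11b on GRCm38 and HTSeq 2.0.5 in its stranded setting; DESeq2 1.44.0 was the authors' test. The 5 special rows of unassigned reads stayed out of totals and tests. Files without a sample numbered 18 and were not used here. Total counts per library, 673306 to 3375352, leave low members such as Aqp4 with counting error as well as animal spread. Groups came from the sample labels, and GFP and H3.3 were pooled as controls, as in the study. Pairs of libraries within groups (296) were checked by a chi-square over rows, and 1 pair was merged.

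Group tests used edgeR 4.0.16 in R 4.3.3 (TMM, filterByExpr with minimum count 10 and minimum total 15, quasi-likelihood F test, Benjamini-Hochberg over 13891 rows), with DESeq2 1.42.0 as an alternative. Intervals are the estimate ± 1.96 SE. For levels, each library's counts were divided by its median-of-ratios size factor, taken from 9428 rows. JTK_CYCLE was reimplemented with 20 templates (periods 8 to 24 h in steps of 4 h) in Python 3.11.15 (scipy 1.17.1, pandas 2.3.3, numpy 2.4.6; figures with matplotlib 3.10.9). Thresholds were 0.01 for viruses and cohorts and 0.05 for day courses. Procedures were tested on simulated data. Positions are from a GENCODE annotation of GRCm38 and promoters from RefSeq.

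All members are named throughout. From the wider and reactive lists, the up to 4 genes of smallest p past a threshold were named, or else the 1 of smallest p, in the comparisons for which list members are named, except for 1 gene that is not reported here; the 5 rows most like the members were named by Pearson r. Members, lists and rules were chosen with earlier results of these data known. Teddm2, Gm26668, the covariate fits, the fits without the 6 libraries of highest gene share and the levels relative to neuron markers were chosen after seeing the data.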

Additional observations from a re-analysis of the deposited data

Results flagged for a closer look

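In each group of virus and ZT the library at either end was set against Dixon's criterion, which asks whether its gap to the next library is too large a part of the group's range. Of 126 combinations of gene and group 22 met it, in 17 libraries, where chance gives about 1 in 20 if values are normally distributed, and 21 of the 22 were at the high end. The levels were not log transformed and have long upper tails, so that this rate does not hold for them. Of the 22, 4 were in libraries among the 6 of highest share of reads in gene rows.

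Gfap met the criterion in 10 of the 18 groups, each time with a single high animal. In GFP these were 210.8 normalised counts at ZT4 (cohort 1 replicate 4, the others 9.37 to 39.8) and 231.7 at ZT16 (cohort 2 replicate 1, the others 32.8 to 66.4). In H3.3 they were 132.0 at ZT8 (cohort 3 replicate 1, the others 10.98 to 25.9) and 200.6 at ZT16 (cohort 2 replicate 1, the others 8.74 to 96.6). In Q5A every ZT had one: 77.7 at ZT0 (cohort 2 replicate 1, the others 17.6 to 34.4), 133.8 at ZT4 (cohort 2 replicate 1, 15.1 to 66.3), 136.1 at ZT8 (cohort 1 replicate 2, 21.1 to 48.3), 292.1 at ZT12 (cohort 1 replicate 4, 22.1 to 92.96), 431.8 at ZT16 (cohort 1 replicate 1, 31.3 to 76.2) and 151.8 at ZT20 (cohort 1 replicate 2, 14.1 to 48.9). None of these 10 libraries was among the 6 of highest gene share.

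For Aqp4 the high animals were 48.0 in GFP at ZT4 (cohort 1 replicate 4, the animal that was also high for Gfap, the others 9.99 to 16.5), 23.6 in GFP at ZT8 (cohort 1 replicate 2, the others 6.57 to 11.6) and 24.2 in H3.3 at ZT4 (cohort 1 replicate 4, the others 3.69 to 10.3). In the Q5A ZT12 library of cohort 2 replicate 1, which is among the 6 of highest gene share, Slc1a3 was at 253.3 (the others 59.6 to 113.3), Slc1a2 at 440.4 (90.6 to 237.8) and Glul at 403.5 (148.2 to 221.4). Glul was also high in 3 libraries of cohort 3, at 304.2 in H3.3 ZT8 (the others 88.3 to 149.0), 287.4 in H3.3 ZT12 (105.2 to 148.5) and 281.1 in Q5A ZT4 (124.6 to 175.1), and low in 1 GFP library at ZT0 (cohort 1 replicate 1, 119.4 against 188.3 to 198.9). Gja1 was high at 79.4 in GFP ZT12 (cohort 1 replicate 1, the others 37.0 to 50.5) and at 78.2 in Q5A ZT16 (cohort 1 replicate 1, the others 36.0 to 49.4).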

How the results depend on the processing

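The 0 of 7 calls between viruses over all ZT held in each of the 14 alternatives, and Glul kept its ZT call in all 13. Without the filter on low counts (36018 rows) single-ZT calls were 1 for Q5A against controls (Gfap ZT12, 1.34) and 2 for H3.3 against GFP (Slc1a3, -1.25 at ZT12 and 1.22 at ZT20); leaving out a replicate number gave 0 to 1 for the latter (Slc1a3 ZT12, -1.42 without replicate 3). The ZT test called 2 members with RLE size factors, DESeq2 or cohort 1 alone (Glul and Slc1a2 each time), 5 without the filter and 1 to 2 without a replicate. Cohort 1 alone gave 1 rhythm difference between Q5A and controls (Gfap). JTK_CYCLE calls in controls were 1 with cohort 1 alone, with q over all rows or relative to neuron markers, and 1 to 2 without a replicate. In Q5A they were 2 with cohort 1 alone, 0 with q or a 24 h cosinor, and 0 to 1 without a replicate. In GFP they were 1 with cohort 1 alone or the cosinor, 0 with q, and 1 to 3 without a replicate. In H3.3 they were 1 with the cosinor or without the 6 libraries of highest gene share, 0 with q or relative to neuron markers, and 0 to 3 without a replicate. Between Q5A and controls Slc1a2 turned to -0.0048 and Aldh1l1 to -0.016 with the neuron covariate, and Aldh1l1 ran from -0.046 (without replicate 4) to 0.11 over the replicates left out. Glul in cohort 3 fell to 0.22 with gene share as a covariate. The cause of these changes was not tested.

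Over all rows, counts of calls moved by over 1.5 times in many alternatives. The widest moves were for H3.3 against GFP at ZT12 (0 by edgeR, 353 by DESeq2, 210 without the filter, 833 without replicate 3), Q5A against controls at ZT12 (0, and 73 without the filter) and over all ZT (5, 0 without replicate 3, 37 in cohort 1 alone), ZT (959, 2376 without the filter, 260 without replicate 1), the rhythm difference of Q5A and controls (16, 100 without the filter, 787 in cohort 1 alone) and of H3.3 and GFP (4, and 80 without the filter), cohort 2 (261, and 1118 with gene share as a covariate), the 24 h cosinor of controls (1418, and 269 without replicate 3) and JTK_CYCLE in Q5A (631, and 1234 in cohort 1 alone) and in H3.3 (1058, and 2778 with the replicate block). Low total counts limit Aqp4 and Aldh1l1, whose rows held a median of 14 and 16.5 reads a library, and 26 of the 38 reactive genes could not be tested.

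With the replicate number as a block, members called were 0 between viruses, 0 for the rhythm differences, 1 for ZT, and by JTK_CYCLE 3 in controls (23.9% of all rows), 3 in GFP (20.2%), 3 in H3.3 (2778 of 13891 rows) and 1 in Q5A (9.42%), with more rows called than without the block in each set; the cohort comparisons could not be fitted with the block. Libraries with the same number did not deviate together more than others (mean r 0.012 over 72 pairs, of which 16 were over 0.1, against 0.014 over 266 pairs of different number), so the number names samples and does not pair them.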
